A study of Homo sapiens with 8 samples.

Results

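The genes described here are SRF, which encodes serum response factor, and 9 genes of the actin cytoskeleton that are known or proposed SRF targets (ACTB, ACTG1, VCL, FLNA, TPM1, TPM4, MYH9, ACTN1 and ACTN4). They were chosen by symbol, as 10 of the 19475 entries of the expression table. The choice was made with earlier results of the same Control against FUSO comparison known. Among these were the mRNA rise of SRF and its Control-specific 5′UTR region. The values below, and the calls at a threshold for these genes, are therefore a description. No p-value is given for the mRNA difference of any of the 10 genes. HCT116, a human colorectal carcinoma line of epithelial origin, was treated with PBS (Control) or with the bacterium Fusobacterium nucleatum (FUSO). The treatment lasted 2 h by the authors' methods. Poly(A) RNA was sequenced before (input) and after (IP) pull-down with an antibody against N6-methyladenosine (m6A). The 8 samples were 2 libraries each of Control input, Control IP, FUSO input and FUSO IP. All came from 1 cell line, with PBS as the comparator and no other bacterium among them. mRNA levels are given as FPKM, fragments scaled by transcript length and by library total, in the 4 input libraries, and m6A peaks as the intervals called in each of 4 lists, 1 per replicate.

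SRF is a MADS-box transcription factor that binds a DNA element called the CArG box in the promoters of immediate early genes and of genes for actin and its partners. It works with cofactors of the TCF family (ELK1, ELK3, ELK4), which are targets of MAP kinases, and of the MRTF family (MKL1, MKL2), which are held in the cytoplasm by monomeric actin and released when actin is built into filaments. m6A is placed on mRNA at adenosines in short motifs with a GGAC core and is found most often near stop codons and in 3′UTRs.

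The CArG boxes of the promoters are shown first, because they are the sequence feature that ties the target genes to SRF. RefSeq promoter windows (build GRCh38.p14, 250 bases before to 50 after a transcription start) matched 9 of the 10 genes, all but ACTB, with 16 windows in all. A CArG box was in 5 of these windows, belonging to 5 genes. Over all promoters it was in 1.29% of 35116 windows and 1.6% of 27305 genes. As the genes were chosen as SRF and its known or proposed targets, this is a description and was not tested. The 60-base parts that hold them are printed 5′ to 3′ on the strand of the gene, with the box in capitals. The element was searched as the CArG consensus, which reads the same on both strands.
SRF promoter, chromosome 6, 43171209 to 43171268, plus strand: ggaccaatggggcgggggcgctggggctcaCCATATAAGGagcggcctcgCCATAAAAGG
ACTG1 promoter, chromosome 17, 81512859 to 81512918, minus strand: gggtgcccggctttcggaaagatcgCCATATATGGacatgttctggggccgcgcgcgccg
FLNA promoter, chromosome X, 154374694 to 154374753, minus strand: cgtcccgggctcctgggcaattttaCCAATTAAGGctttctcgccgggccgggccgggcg
TPM4 promoter, first of 3 windows, chromosome 19, 16067340 to 16067399, plus strand: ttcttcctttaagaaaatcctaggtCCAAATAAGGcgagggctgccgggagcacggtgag
ACTN1 promoter, second of 4 windows, chromosome 14, 68977703 to 68977762, minus strand: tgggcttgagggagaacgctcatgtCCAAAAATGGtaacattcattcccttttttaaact
SRF itself had 2 boxes, whose first bases lay 30 and 10 bases before the start. The single box of ACTG1 and that of FLNA each began 94 bases before the start. Those of TPM4 and ACTN1 began 173 and 171 bases before the start of their own window. The other windows of SRF, TPM4 and ACTN1, at other starts, held no box. Whether a window with a box lies at the start of the canonical transcript used below for the peaks was not examined. The windows of VCL, TPM1, MYH9 and ACTN4 did not hold these letters, which says nothing about sites elsewhere in those genes.

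The libraries were those of an epithelial line by their markers. The 6 epithelial markers summed to between 4526 and 5290 FPKM in each library, led by KRT8. Of the fibroblast markers, 3 of 6 were at 0 in all libraries and the sum was at most 5.85 FPKM, nearly all of it COL1A1. The 5 leukocyte markers summed to at most 9.30 FPKM, nearly all of it CD68, with CD3E and MS4A1 at 0. The 5 smooth muscle markers summed to between 23.1 and 25.9 FPKM, led by SMTN, while MYH11, ACTG2 and CNN1 were each below 1 FPKM. No read counts were given, so the depth was unknown. The relative depth of the input libraries, estimated from the lowest FPKM values, was between 0.904 and 1.23 with Control 1 as 1. That of the IP libraries was not known.

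Levels of the 10 mRNAs spanned a wide range. ACTG1 and ACTB, the cytoplasmic γ- and β-actin that form the filaments, were highest, with means over the 4 libraries of 2426 and 949.1 FPKM. They were followed by ACTN4 at 167.3, TPM4 at 152.5, FLNA at 83.3, MYH9 at 60.6, VCL at 58.4, ACTN1 at 32.7, SRF at 16.4 and TPM1 at 6.29 FPKM. The 4-library ranges of neighbours in this order did not touch except for MYH9 and VCL, which were apart in Control and overlapped in FUSO. SRF stood at the 80.5th percentile of all 19475 entries and ACTG1 at the 99.9th. ACTB and ACTG1 have similar coding sequences and have processed pseudogenes, and the tropomyosin genes are alike in part. Reads could thus be split between copies, and these values are less certain.

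**Figure D1:**
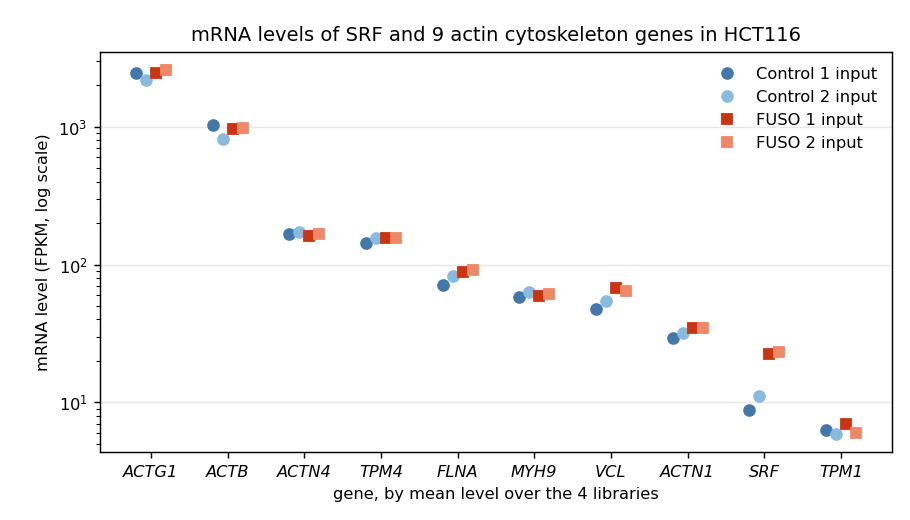
mRNA level in FPKM (log scale) of the 10 genes in each of the 4 input libraries, 1 point per library, circles for Control and squares for FUSO. SRF at 8.76 and 11.1 FPKM in Control and 22.5 and 23.2 in FUSO is the widest gap between groups, and the points of ACTN4, TPM1, MYH9 and ACTB overlap.

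SRF mRNA was at 8.76 FPKM in Control 1, 11.1 in Control 2, 22.5 in FUSO 1 and 23.2 in FUSO 2. Both FUSO values were above both Control values, and the FUSO pair lay closer together. The means were 9.92 ± 1.64 FPKM (SD, n = 2) in Control and 22.8 ± 0.444 FPKM (SD, n = 2) in FUSO, a ratio of 2.30. On the scale of log2(FPKM + 1), on which all differences are given, this was a difference of 1.13 with a standard error (SE) of 0.113. Every SE is limma's moderated value, which draws on the variance of all tested genes as well as on the gene's own libraries. SRF ranked 33rd from the highest among the 11088 tested genes, those whose mean over the libraries reached 1 FPKM. With limma and an adjusted p under 0.05, SRF was 1 of 10 members called higher, where 74 of all tested genes (0.667%) were called higher, and 0 of 10 were called lower, where 15 (0.135%) were. As the contrast was used to choose the genes, nothing is read from these counts. The SRF call was not kept with no filter on low values, without FUSO replicate 1 or without FUSO replicate 2.

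The 2 actins differed little between groups. ACTB was at 1038 and 816.4 FPKM in Control, against 959.3 and 982.5 FPKM in FUSO. The FUSO values lay between those of Control, with a log2 difference of 0.076 (SE 0.113), which was -0.097 without Control replicate 2. ACTG1 was at 2463 and 2185 FPKM in Control, against 2479 and 2579 FPKM in FUSO, a log2 difference of 0.12 (SE 0.0693). Its FUSO values were both above those of Control, the lower of them by little.

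VCL, FLNA and ACTN1 had the largest differences after SRF. VCL encodes vinculin, which couples integrin and cadherin adhesions to actin filaments. It was at 47.5 and 54.3 FPKM in Control, against 67.4 and 64.4 FPKM in FUSO, with a ratio of 1.29 and a log2 difference of 0.37 (SE 0.0803). FLNA, filamin A, cross-links filaments into networks, and was at 71.3 and 82.2 FPKM in Control, against 88.2 and 91.6 FPKM in FUSO (log2 difference 0.23, SE 0.0811). ACTN1, α-actinin 1, bundles filaments at adhesions and stress fibres, and was at 29.1 and 31.7 FPKM in Control, against 34.9 and 35.0 FPKM in FUSO (log2 difference 0.19, SE 0.0675). In each of the 3 genes both FUSO libraries were above both Control libraries, and Control 1 was the lowest library. None of the 3 was called. Without Control replicate 2, VCL (0.46) and FLNA (0.33) were, FLNA barely, in a fit whose spread comes from the 2 FUSO libraries alone.

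The other genes of the contractile and cross-linking machinery were near 0. TPM4, a tropomyosin of non-muscle filaments, was at 143 and 155.4 FPKM in Control, against 155.8 and 155.9 FPKM in FUSO (log2 difference 0.064, SE 0.0602). Its second Control library was thus at the FUSO level. TPM1, another tropomyosin, was at 6.31 and 5.88 FPKM in Control, against 6.95 and 6.01 FPKM in FUSO (log2 difference 0.074, SE 0.096), with overlapping groups and a difference of -0.0165 without FUSO replicate 1. MYH9, the heavy chain of non-muscle myosin IIA, was at 58.2 and 63.0 FPKM in Control, against 59.7 and 61.3 FPKM in FUSO, with a ratio of 0.998 and a log2 difference of -0.0021 (SE 0.0637). ACTN4, α-actinin 4, was at 167.4 and 172.5 FPKM in Control, against 161 and 168.2 FPKM in FUSO (log2 difference -0.046, SE 0.0533). In MYH9 and ACTN4 the groups overlapped.

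Both FUSO libraries were above both Control libraries in 6 of the 10 genes and below them in 0, against 26.1% and 21.1% of all tested genes. The median log2 difference was 0.10 over the 10 genes and 0.076 over the 9 without SRF, beside 0.014 over all tested genes, whose quartiles were -0.080 and 0.11. The genes were chosen with this contrast known, and the counts are given as a description.

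**Figure D2:**
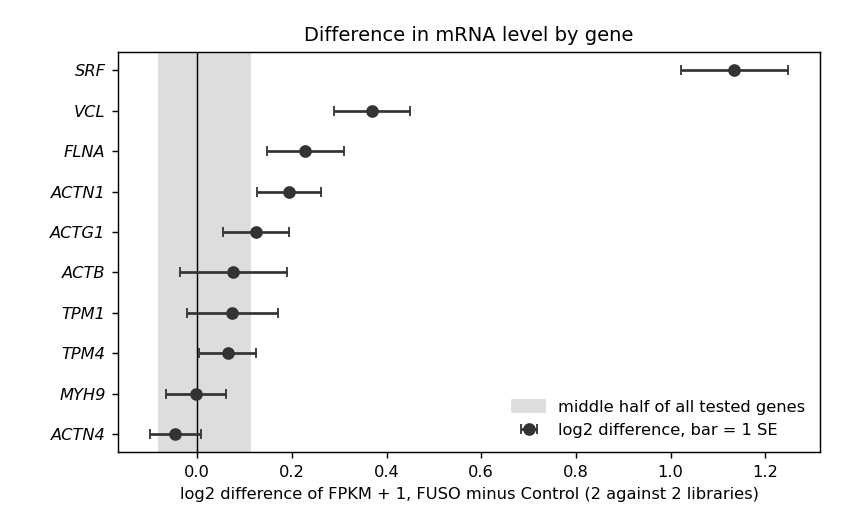
Log2 difference of FPKM + 1 (FUSO minus Control, 2 against 2 libraries) of each gene as a point with a bar of 1 SE, over a grey band between the quartiles of all 11088 tested genes. SRF at 1.13 is far to the right, VCL (0.37), FLNA (0.23), ACTN1 (0.19) and ACTG1 (0.12) lie past the band, and the other 5 lie inside it.

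The wider SRF pathway was described by 4 lists of 86 genes in all, without the 10 above, of which 76 were tested. Of these, 8 were called higher and 0 lower (limma, adjusted p under 0.05), beside 0.667% and 0.135% of all tested genes. Without adjustment, 20 had a p under 0.05 and a positive difference and 4 a negative one, where 1496 of the 11088 tested genes (13.5%) had such a p, 781 of them with a positive difference. The median log2 difference was 0.066, beside 0.014 over all tested genes. The lists were compiled with earlier results known and are not independent of them. With no filter on low values, JUNB and CYR61 were called of the 8, and with no trend these and CTGF.

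The list that holds the cofactors of SRF had 19 of 20 genes tested, 0 called by limma, 5 with an unadjusted p under 0.05, and a median difference of 0.016. MKL1 was at 4.63 and 4.88 FPKM in Control, against 4.77 and 4.39 FPKM in FUSO, and MYOCD, the cofactor of heart and smooth muscle, was listed at 0 throughout. ELK3 (-0.30, SE 0.308) was at 8.69 FPKM in FUSO 2 and between 15.4 and 18.4 FPKM in the other libraries. FHL2, a LIM protein that binds SRF, was higher in both FUSO libraries, with a difference of 0.33 (SE 0.0658), but was not called (limma adjusted p = 0.158).

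Of the immediate early genes of the TCF-SRF type, 7 of 10 were tested, 4 were called higher and the median difference was 0.43. EGR1, a zinc finger factor, rose from 27.3 and 31.1 FPKM to 50.7 and 47.9 FPKM (log2 difference 0.74, SE 0.0812, limma adjusted p = 0.0265). NR4A1, an orphan nuclear receptor, rose from 9.03 and 10.5 FPKM to 16.9 and 18.1 FPKM (0.78, SE 0.0924, adjusted p = 0.0339). JUNB, an AP-1 subunit, rose by a difference of 0.66 (SE 0.0548, adjusted p = 0.0114) and IER2 by 0.43 (SE 0.0516, adjusted p = 0.0342). The calls of EGR1, NR4A1 and IER2 were not kept with no filter or no trend, nor that of IER2 with the replicate block. FOS, the best known SRF target, was at 83.8 and 99.8 FPKM in Control, against 101.8 and 82.3 FPKM in FUSO, with overlapping groups. This holds for the single time sampled, and earlier times are not in these data. FOSB (0.23, SE 0.576) and MCL1 (0.35, SE 0.0861) were not called.

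Of the other targets of SRF and MRTF, 25 of 28 were tested, 3 were called higher and the median difference was 0.085. These 3 encode proteins of the extracellular matrix and are also known as targets of YAP. CYR61 rose from 41.9 and 39.7 FPKM to 75.3 and 79.2 FPKM (0.90, SE 0.0615, limma adjusted p = 0.00664). CTGF rose from 4.41 and 4.50 FPKM to 7.53 and 8.15 FPKM (0.70, SE 0.0813, adjusted p = 0.0325). THBS1 rose from 2.47 and 3.14 FPKM to 6.08 and 5.96 FPKM (0.89, SE 0.111, adjusted p = 0.0394), a call kept in 5 of the 11 alternative fits and not with quantile normalization, GC correction, no filter, no trend or without either FUSO library. The rest of the list was not called, among them ZYX (0.31, SE 0.0741), ANKRD1 (0.31, SE 0.0973), FERMT2 (0.23, SE 0.0634) and TPM2 (-0.28, SE 0.0664). TPM2 lay lower in both FUSO libraries, at 191.1 and 203.7 FPKM compared with 250.7 and 229.7 FPKM in Control.

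Of the paralogs and partners of the actin machinery, 25 of 28 were tested, 1 was called higher and the median difference was 0.047. This was CAPZB, the β subunit of the protein that caps filament ends, which rose from 24.2 and 21.7 FPKM to 37 and 40.6 FPKM (0.73, SE 0.0831, limma adjusted p = 0.0282). Its partners CAPZA1 (-0.053, SE 0.0755) and CAPZA2 (0.16, SE 0.0806) were not called. TPM3 had the lowest difference of the list (-0.73, SE 0.423) and was not called. This value came from 1 library: FUSO 1 was at 14.9 FPKM, and FUSO 2 at 40.1 was between the Control values of 37.8 and 45.1 FPKM. ENAH (0.50, SE 0.254), EZR (-0.24, SE 0.0486) and RDX (-0.23, SE 0.082) were not called. Leaving out FUSO replicate 1 or FUSO replicate 2 ended all 8 calls.

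The 5 genes whose profile over the 4 input libraries was nearest that of SRF were ZBTB7A, BTG2, NEK9, CD83 and DUSP1. Likeness was measured as the Euclidean distance between centred log2(FPKM + 1) values, which was 0.07 for ZBTB7A, 0.147 for BTG2, 0.179 for NEK9, 0.21 for CD83 and 0.247 for DUSP1. ZBTB7A was at 2.77 and 3.98 FPKM in Control, against 8.23 and 8.73 FPKM in FUSO. BTG2 was at 5.98 and 6.65 FPKM in Control, against 14.8 and 14.3 FPKM in FUSO. With 4 libraries in 2 groups, such a match rests mainly on the size of the difference.

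m6A peaks were then placed on these genes. Same-strand peaks from any of the 4 lists whose exon blocks shared at least 1 base were joined into 22001 union regions, of which 24 belonged to 9 of the 10 genes and were built from 76 peaks. Control 1 held 24 of these peaks, Control 2 held 21, FUSO 1 held 15 and FUSO 2 held 16, although the whole lists were of like size (17198, 18149, 18365 and 17039 peaks). A region is called lost here when both Control lists and no FUSO list had a peak in it, and gained in the reverse case. Of the 24 regions, 13 were in all 4 lists, 5 were lost, 0 were gained and 6 had another pattern. Over all regions 51.5% were in all 4 lists, 2.64% were lost and 2.38% were gained. The choice of genes used the loss in SRF, and with 2 lists against 2 no exact test can give a p below 0.33, so these counts are not tested. Without the Control 2 list 8 regions were lost, and without the Control 1 list 2 were gained. Positions are on GRCh37 and on the canonical transcript of each gene, counted in nt from its start. The p-value of a peak is that of the authors' peak caller, at most 0.012 in any list. It falls with depth and with the level of the mRNA as well as with enrichment, and is not used to compare methylation between groups.

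The regions that carry these results are shown by a 30-base site at the GGAC nearest the middle of each, read on the transcript strand from GRCh37, with GGAC in capitals. They are the regions of lowest p in SRF and MYH9, the FLNA region found in all 4 lists, and the lost regions of FLNA and MYH9 that hold the motif. Region 4 of FLNA, which had the lowest p in that gene, did not hold it.
SRF region 3 (all 4 lists), chromosome 6, 43146931 to 43146960, plus strand: cgcccgccgccctGGACagatggcccaagg
FLNA region 1 (lost), chromosome X, 153596210 to 153596239, minus strand: tgggcgccctggtGGACagctgtgccccgg
FLNA region 2 (all 4 lists), chromosome X, 153588598 to 153588627, minus strand: gccaattccaagtGGACtgctcgagcgcgg
MYH9 region 1 (lost), chromosome 22, 36696181 to 36696210, minus strand: agatcatcctggaGGACcagaactgcaagc
MYH9 region 3 (lost), chromosome 22, 36688184 to 36688213, minus strand: ggaagctccagaaGGACctggagggcctga
MYH9 region 6 (all 4 lists), chromosome 22, 36678605 to 36678634, minus strand: ccccaccttcttgGGACtgctgtgaacatg
GGAC was in 18 of the 24 regions, compared with 72.8% of all union regions, whose lengths differ. It was in 12 of the 13 regions found in all 4 lists and in 3 of the 5 lost ones. Over the whole series these shares were 90% and 70.7%. SRF region 2 and MYH9 region 5, both lost, did not hold these letters. A match is a description of the sequence and no call of a methylated base.

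SRF (chromosome 6, 43139007 to 43149244, plus strand) had 4 regions. The strongest, region 3, covered the stop codon (transcript nt 1695 to 2202, with 5 GGAC) and was in all lists, with p of 5e-28 and 1.6e-52 in Control and 1.3e-63 and 1e-74 in FUSO. Among all union regions of like length, 90% held GGAC. The lost region 2 lay in the 5′UTR (43139272 to 43139391, transcript nt 266 to 385), just before the start codon at nt 389. Its p were 0.0018 and 0.0081, and 90.1% of the peaks of the Control 1 list and 99.3% of those of the Control 2 list had a lower p. This peak stood near the weak end of both lists. In Control 1 alone, SRF had 2 further short peaks of 61 nt, region 1 in the 5′UTR (nt 116 to 176, p of 0.0038) and region 4 in the 3′UTR (nt 3097 to 3157, p of 0.0063). SRF had 4 and 2 peaks in Control and 1 in each FUSO list, while its mRNA was 2.30 times as high in FUSO.

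MYH9 (chromosome 22, 36677326 to 36784012, minus strand) had 6 regions, 5 of them in the CDS and 1 over the stop codon. Regions 1, 3 and 5 were lost. Of the 11155 genes with a peak, 24 lost at least 2 regions, and MYH9 was the 1 gene that lost 3. This count takes no account of how many regions a gene had, which were 6 in MYH9. Region 1 (36695017 to 36697077, nt 2838 to 3228) had p of 2.2e-05 and 2e-15 in the Control lists, and with a reciprocal overlap of 50% it was not counted as lost. Region 3 (36688129 to 36688279, nt 4277 to 4427) had p of 1.2e-07 and 5e-05, and region 5 (36681324 to 36681945, nt 5296 to 5506) had p of 8.9e-08 and 2e-07. These peaks were stronger than that of the SRF 5′UTR, and region 5 was the 1 lost region left among the 10 genes when peaks above a p of 1e-05 were left out. Region 4 (36684324 to 36685291, nt 4577 to 5086, with 8 GGAC) was in both Control lists (p of 4e-20 and 6.3e-21) and in FUSO 2 (p of 1.9e-06) but not in FUSO 1. Region 2 (nt 3707 to 4007) was in all 4 lists, with p of 1.4e-09 and 1e-17 in Control and 0.00025 and 6e-06 in FUSO. Region 6, at the stop codon (36678342 to 36680159, nt 5925 to 6435), was in all lists with p of 2e-83, 3.2e-100, 1e-109 and 1e-109. MYH9 peaks covered 1715 and 1835 nt in the Control lists and 572 and 843 nt in the FUSO lists, at mRNA levels that overlapped between groups.

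FLNA (chromosome X, 153576899 to 153603002, minus strand) had 4 regions. Region 1, in the CDS near its 5′ end (153595892 to 153596391, nt 686 to 986, with 5 GGAC), was lost, with p of 0.00068 in Control 1 and 0.00019 in Control 2, where 2 peaks made it up. With a reciprocal overlap of 50% these did not join, and it was not counted as lost. Region 2, also in the CDS (153588486 to 153588846, nt 3562 to 3922), was in all 4 lists, with p of 0.00043 and 5e-12 in Control and 2.3e-09 and 9.5e-07 in FUSO. Region 3, before the stop codon (nt 8057 to 8146), was in Control 1 alone (p of 0.0013). Region 4, at the 3′ end (nt 8326 to 8506), was in Control 1 (p of 2.5e-16), FUSO 1 (p of 6e-07) and FUSO 2 (p of 0.00012) but not in Control 2.

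**Figure D3:**
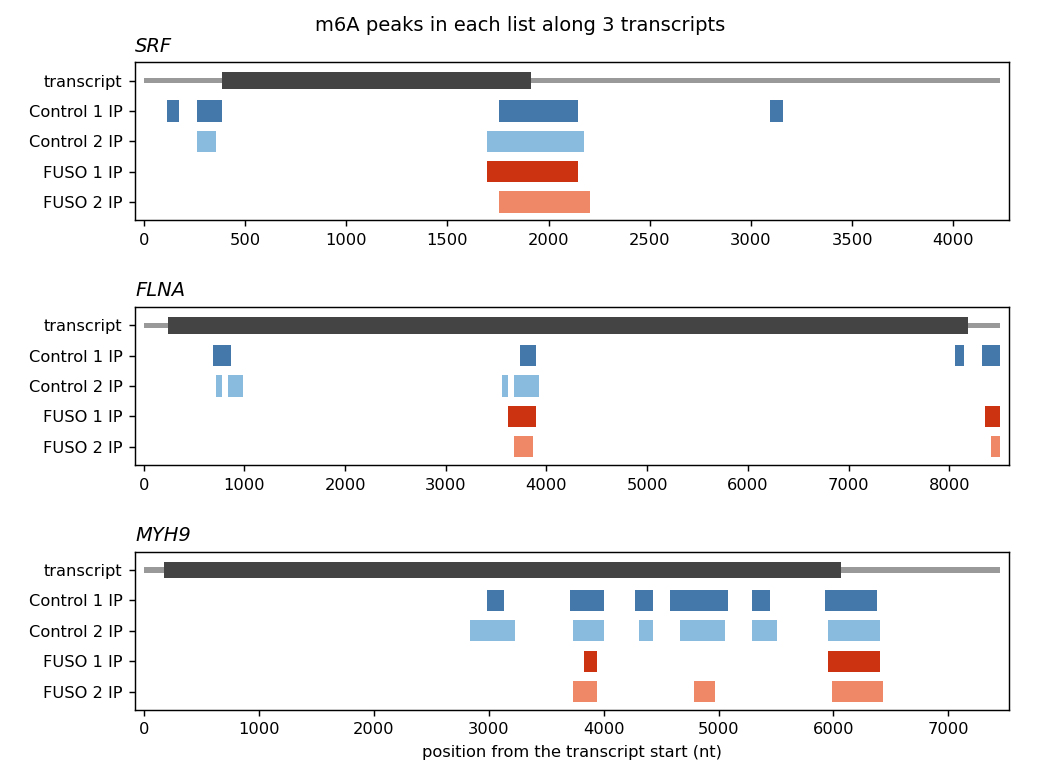
Peaks of each list (bars, 1 row per list) along the canonical transcripts of SRF, FLNA and MYH9, in nt from the transcript start, under a model with the CDS as a thick bar. All 4 rows have a bar at the stop codon of SRF and of MYH9, and MYH9 has 6 bars in each Control row against 2 and 3 in the FUSO rows.

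SRF, FLNA and MYH9 were also the 3 members with fewer peaks in both FUSO lists than in either Control list, which held for 5.63% of the 11155 genes with a peak. The reverse held for 0 members and for 5.41% of those genes. FLNA had 4 peaks in each Control list and 2 in each FUSO list. Its Control 2 peaks were pieces of regions 1 and 2 alone, and its FUSO peaks lay in regions 2 and 4. The lower FLNA count beside Control 2 thus came from split peaks. The lost regions of MYH9 had a GC content of 58.3%, 58.9% and 63.5%, that of FLNA 65.4% and that of SRF 72.5%. The 13 regions of the 10 genes found in all 4 lists had between 45.1% and 75.7%, with a median of 61.4%. In MYH9, lost regions 1 and 3 lay below the 2 kept ones (62.8% and 61.4%), and lost region 5 lay above both. Over the whole series the median GC content was 61.7% in lost regions, 45.0% in gained regions and 50.3% in those found in all 4 lists. The median length was 210 nt in lost, 181 nt in gained and 595 nt in all-list regions, and the median lowest p was 3.4e-05, 5.1e-05 and 1.6e-23. The part of base composition, peak strength and IP depth in the loss was not tested.

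The remaining genes with peaks had no lost or gained region. ACTB had 1 peak in each list at the end of the transcript, covering the stop codon, with a p listed at 0. It covered 503 nt in both Control lists and 710 nt in both FUSO lists, the latter reaching the 3′ end. VCL had 1 region over the stop codon (chromosome 10, 75874106 to 75878266, 3 GGAC), with p of 7.9e-67, 1e-121, 1e-152 and 1e-139 in Control 1, Control 2, FUSO 1 and FUSO 2. Both were thus among the strong peaks of every list. ACTN1 had region 1 over the start codon (nt 1 to 444, 7 GGAC) and region 2 over the stop codon (nt 2981 to 3309), and region 1 covered 359 and 418 nt in Control against 270 and 150 nt in FUSO. ACTN4 had a region at the 5′ end, of 180 and 210 nt in Control and 90 and 120 nt in FUSO, and a region in the 3′UTR (nt 3098 to 3605) with p between 1.6e-56 and 5e-34. In both α-actinins the 5′ peak was thus shorter in the FUSO lists, and the peak at the other end was found in all of them.

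The tropomyosins differed from each other. TPM4 had a region of 803 nt over 8 exon blocks, nt 38 to 840 with the CDS at nt 72 to 818, in all 4 lists (p of 5e-92, 1e-173, 1e-119 and 4e-90). Its peak began at nt 97 and 38 in Control and at nt 186 and 157 in FUSO. TPM4 also had a region on exons of another transcript (chromosome 19, 16178317 to 16187253), also in all 4. A 3′UTR region of TPM4 (nt 2148 to 2474) was in Control 1, FUSO 1 and FUSO 2 but not in Control 2. TPM1 had 1 region over 4 exon blocks (chromosome 15, 63340740 to 63353098) that was weak in all lists, with p of 0.00012 and 1.2e-06 in Control and 0.001 and 1.6e-06 in FUSO. It covered 360 and 390 nt in Control and 121 and 181 nt in FUSO, and with a reciprocal overlap of 50% it split into a lost and a gained part. Both Control lists also held a peak named TPM1-AS on the opposite strand at this place. Whether the counting used strand is not given in the sources used here.

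ACTG1, the highest mRNA of the 10, had no peak in any list. This was common among abundant mRNAs: 212 of 658 genes averaging 100 FPKM or more (32.2%) and 54 of 87 averaging 1000 FPKM or more had none. ACTB had a peak in every list.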

How the data were processed

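The deposited mRNA values were FPKM of the 4 input libraries, made by the authors with StringTie. Reads had been trimmed (Trim Galore 0.3.3 in the submitters' processing notes, cutadapt in the methods) and aligned to hg19 with HISAT2 2.1.0. Peaks were called for each replicate from its IP and input, with MACS2 named in the methods. The lists give each peak as exon blocks, as the program exomePeak writes them, so the caller is uncertain. The 1 value per peak, between 0 and 0.012, was read as the authors' p-value as deposited. FPKM are not counts, so the DESeq2 test of the study was not run. Instead log2(FPKM + 1) was fitted with limma 3.58.1 (R 4.3.3, eBayes with trend, no covariate) over the 11088 genes whose mean reached 1 FPKM, with Benjamini-Hochberg adjustment over all of them and calls at 0.05. The fit was tested on simulated data. The p-values and SE are moderated. They join a gene's own spread between 2 libraries a group with a variance trend fitted over all tested genes. Alternatives were a pseudocount of 0.1, no filter, quantile normalization, median scaling, GC correction, no trend, a replicate block and leaving out each library, and for peaks a reciprocal overlap of 50%, p of at most 1e-05 and leaving out each list.

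Peaks were placed on GENCODE 44 canonical transcripts (GRCh37) when at least 90% of bases lay on them, and classed by their midpoint, within 100 nt of the stop codon as stop codon. The genes and the 4 lists were chosen with earlier results of these data known. Named were all 10 genes, and of each of the other 3 lists the called genes and up to 4 others with the largest absolute difference, the 5 genes nearest SRF in profile, and every region found in 1 to 3 lists with the region of lowest p of each gene. MKL1, MYOCD, ELK3, FHL2, CAPZA1 and CAPZA2 were named beside them after their values were seen. In 27 entries a number stood in place of a symbol. Of the list that holds the SRF cofactors, the counts and 4 genes are given, and its other genes are not reported here.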

Additional observations from a re-analysis of the deposited data

How the results depend on the processing

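Of 110 recomputed log2 differences of the 10 genes under 11 alternative fits, 99 kept their direction and their side of the threshold. SRF stayed between 1.12 and 1.15 without either FUSO library and was then not called by limma, nor with no filter. The SRF difference moved more with the Control libraries, to 0.9806 without Control replicate 1 and 1.2881 without Control replicate 2. Without Control replicate 2, VCL (0.46) and FLNA (0.33) passed the threshold and ACTB turned to -0.0967, and it was 0.2495 without Control replicate 1. TPM1 turned to -0.0165 without FUSO replicate 1 and was 0.1653 without FUSO replicate 2. MYH9, at -0.0021, turned to 0.0167 with quantile normalization and 0.0125 with GC correction, and ranged from -0.0581 without Control replicate 1 to 0.0539 without Control replicate 2, with 0.0172 without FUSO replicate 1. With no filter, 35 genes were called higher and 5 lower, of which 0 members and 2 pathway genes. With no trend, 9 genes were called lower and 3 pathway genes higher. Leaving out 1 library gave 13 (FUSO 2) to 185 (Control 2) genes higher and 3 to 99 lower in the same 2 fits, 0 to 3 members higher, 0 to 11 pathway genes higher and 0 to 1 lower (TPM2, without Control replicate 2). In such fits the lone library is assumed to vary like the other group. The replicate block gave 75 genes higher and 15 lower, with SRF called and IER2 not. Same-numbered libraries deviated together with a correlation of 0.0243, so the number was not taken as a pairing. For the peaks of the 10 genes, a p of at most 1e-05 left 1 lost region, an overlap of 50% gave 1 gained and kept SRF region 2 and MYH9 regions 3 and 5 as lost, with MYH9 region 4 and part of the TPM1 region added, and leaving out 1 list gave 5 to 8 lost and 0 to 2 gained. The causes were not tested. The median of all tested genes moved by less than 0.1 under every scaling. The depth of the libraries is unknown, so no floor can be given for a peak that was not called.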
